A study of Chlorocebus sabaeus with 45 samples.

Results

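Type I interferon-stimulated genes were followed in the blood of 15 vervet monkeys through capture, relocation and quarantine. The set held 45 named genes that cells switch on in response to type I interferon, taken by symbol, and no measured value entered the rule. All 45 were among the 33994 genes in the files and all 45 were among the 18753 genes that passed the filter on low values and were tested.

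The animals were wild-caught juvenile male Chlorocebus sabaeus from the Caribbean island of St. Kitts, 15 in all. Each was bled on day 0, day 3 and day 14 after exposure to the stressor, which gave 3 groups of 15 whole blood samples and 45 RNA-seq libraries. Day 0 blood was drawn in the field soon after trapping, under ketamine and xylazine, whereas on day 3 and day 14 the animals were sedated with dexmedetomidine and midazolam in quarantine, where they were housed individually. Each animal came from a separate troop. No group without the move was among the samples, so that in comparisons with day 0 the time, the place of sampling and the sedative cannot be told apart. Day 3 and day 14 shared the place and the sedatives.

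Type I interferons bind a receptor made of IFNAR1 and IFNAR2 on nearly all cells, and the signal passes through JAK1 and TYK2 to a complex with STAT2 and IRF9 that enters the nucleus. The genes switched on there encode sensors of viral nucleic acid, enzymes that degrade RNA or block translation, proteins that trap or modify viral components, and factors that amplify or end the response. In whole blood these genes are known for moving together and for differing widely between individuals.

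Between 13216275 and 31469332 fragments fell on genes in each library (median 22785702). Levels are given as fragments per kilobase of transcript, relative to library depth (FPKM), divided by a TMM factor per library, here called scaled FPKM, and fold changes are differences of log2(scaled FPKM + 0.1) between days within animals. A gene is called changed when limma gave it a Benjamini-Hochberg adjusted p under 0.05 over all 18753 tested genes. Among the members, fragments were fewest for USP18, with a median of 28 per library and 8 in the lowest, and most for SAMD9L, with a median of 25356.

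Before the comparisons, 2 animals stood apart. On day 0, VSC00011 had the highest level of the 15 animals for 34 of the 45 interferon-stimulated genes, although it was highest for 10.2% of all tested genes. VSC00002 was the highest for 6 more and lay above the median animal for 44 of 45. The median deviation of the members from the median animal was 1.99 (log2) in VSC00011 and 1.40 in VSC00002, and the next was 0.22 in VSC00015. IFI44, an interferon-induced antiviral protein, showed the gap most plainly, at 1063 scaled FPKM in VSC00011 and 472 in VSC00002 against a median of 21.4 on day 0. ZBP1 and OAS1 differed, since VSC00011 had the second lowest ZBP1 (0.699) and a low OAS1 (37.1) on day 0.

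The lead then passed to other animals. By day 3, VSC00011 was the highest for 1 member and VSC00002 for 28. On day 14, VSC00007 led in 20 members, VSC00015 in 11 and VSC00013 in 6, whereas VSC00011 led in none. Within VSC00011, 42 of 45 members were lower on day 3 than on day 0 (median change -1.77) and 41 were lower on day 14 (median -1.72). VSC00002 had 31 members lower on day 3 (median -0.37) and 41 lower on day 14 (median -1.30). Most members were also lower on day 3 in VSC00001 (33 of 45, median -0.27), VSC00004 (31, median -0.17) and VSC00013 (28, median -0.19), and on day 14 in VSC00004 (34, median -0.39), VSC00012 (27, median -0.12), VSC00014 (27, median -0.11), VSC00010 (24, median -0.06) and VSC00003 (23, median -0.01). In the opposite direction, VSC00012 had 41 members higher on day 3 (median 0.61) and VSC00009 had 40 (median 0.72), and VSC00006 had 39 members higher on day 14 (median 0.62). VSC00015 had a median member change of 0.96 on day 3 and 1.30 on day 14. Median changes of all genes in the same animals lay between -0.11 and 0.10. Per the paper, VSC00015 alone was in quarantine while a hurricane passed, which it names as a possible further stressor. Its part in these levels was not tested. Some results below are also given without VSC00002 and VSC00011. Both were picked for their high levels of these genes on day 0, so leaving them out moves most changes from day 0 upward by that choice alone.

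**Figure D1:**
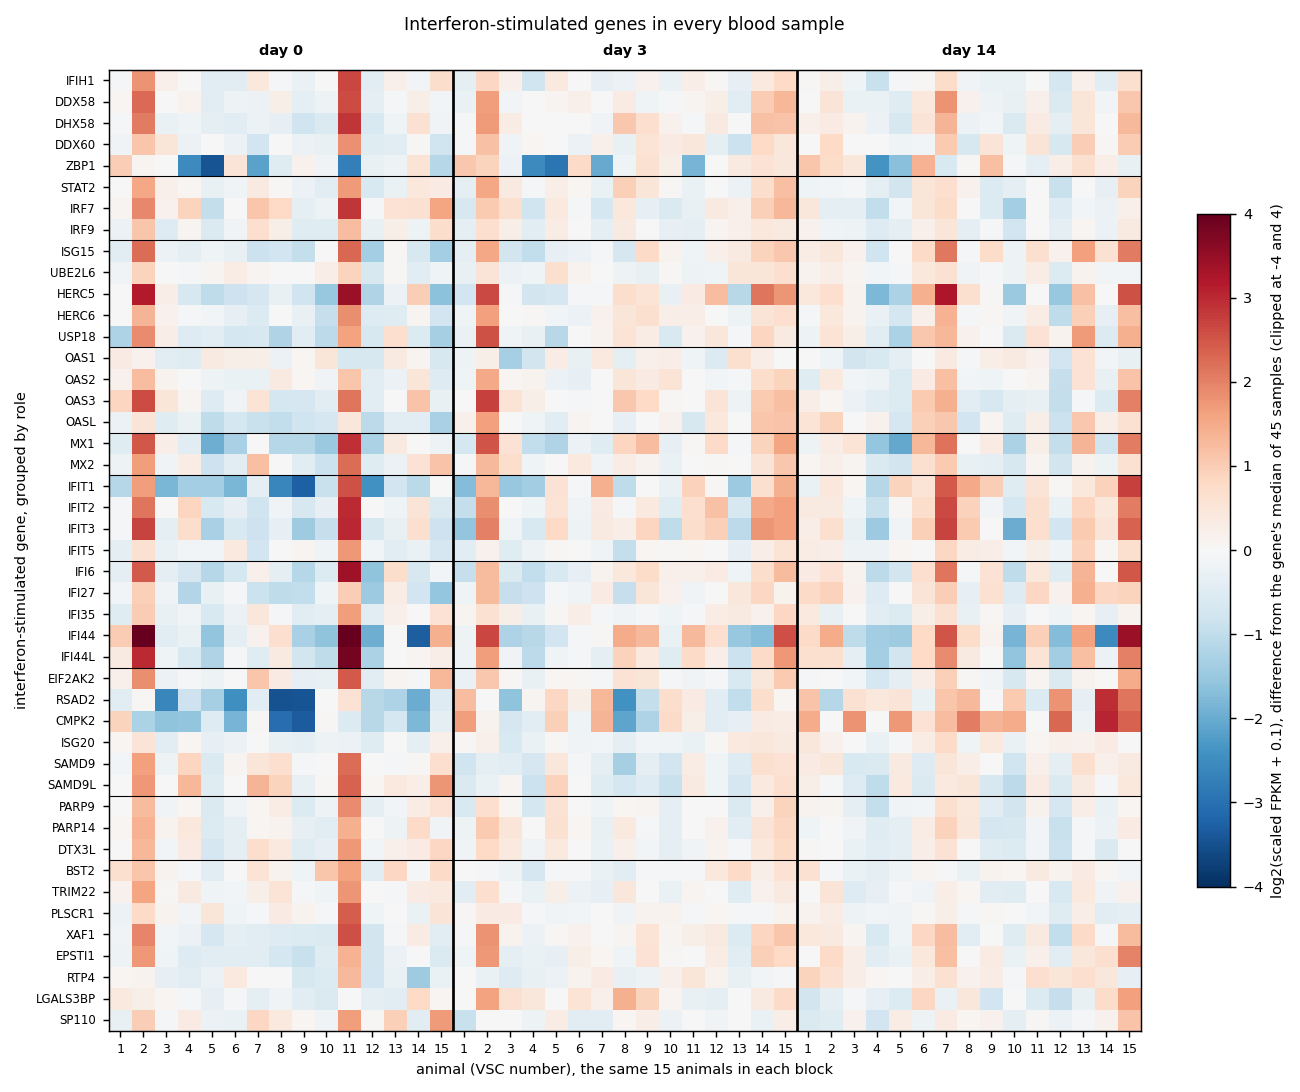
Level of each of the 45 interferon-stimulated genes (rows, grouped by role) in each of the 45 samples (columns, the 15 animals in order within each day), as the log2 difference from the gene's median over all samples. On day 0 the columns of VSC00002 and VSC00011 are red through most rows, on day 14 those of VSC00007 and VSC00015 are, and the rows of CMPK2 and RSAD2 go from blue to red between day 0 and day 14.

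Day 3 vs. day 0 asked what had changed in the first days of quarantine. In this comparison 8 of the 45 interferon-stimulated genes were called (17.8%), against 19% of all tested genes. OASL, RSAD2, CMPK2 and LGALS3BP were up-regulated, and SAMD9, SAMD9L, BST2 and SP110 were down-regulated. The median log2 fold change was 0.11 over the members and 0.01 over all tested genes, with 31 members above 0. By direction, 9.99% of all genes were called higher and 9.02% lower. The share of members called was close to that of all genes.

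Day 14 vs. day 0 compared the blood after 2 weeks of individual housing with that at capture. Here 16 of 45 members were called (35.6%), against 44.1% of all tested genes. ZBP1, ISG15, OASL, IFIT1, IFI27, RSAD2, CMPK2, ISG20, EPSTI1 and RTP4 were up-regulated and IRF7, SAMD9L, DTX3L, BST2, TRIM22 and SP110 were down-regulated. The median over the members was 0.01 and over all genes -0.05, and 20.7% of all genes were called higher and 23.3% lower. Between day 3 and day 14, CMPK2 and RTP4 rose and LGALS3BP fell, so that 3 of 45 members were called (6.67%) against 25.4% of all tested genes (12.2% higher and 13.2% lower). Comparisons with day 0 share the day 0 samples.

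The split into higher and lower rests on the scaling. Without TMM the median of all tested genes moved to -0.36 for day 14 vs. day 0 and to -0.35 for day 14 vs. day 3, and the members followed it to -0.38 and -0.40. Without that scaling 4 members were called higher and 19 lower on day 14 vs. day 0, in place of 10 and 6, and 1 higher and 18 lower on day 14 vs. day 3, in place of 2 and 1. All genes then gave 9.29% higher and 49.9% lower (59.2% in all) for day 14 vs. day 0. The shares were 4.98% and 46.1% (51.1%) on day 14 vs. day 3, while day 3 vs. day 0 had 7 members and 12.8% of all genes called. With no animal block 5, 11 and 1 members were called in the 3 comparisons, against 12.1%, 36.1% and 14.4% of all genes. With the RNA integrity number added to the block they were 8, 8 and 1, against 14.4%, 22.9% and 10.4%. That number, a measure of how intact the RNA is, was itself higher on average on day 3 than on day 0 and higher again on day 14, so that it and the day can be told apart only in part. Changes below are relative to the scaled median of all genes.

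**Figure D2:**
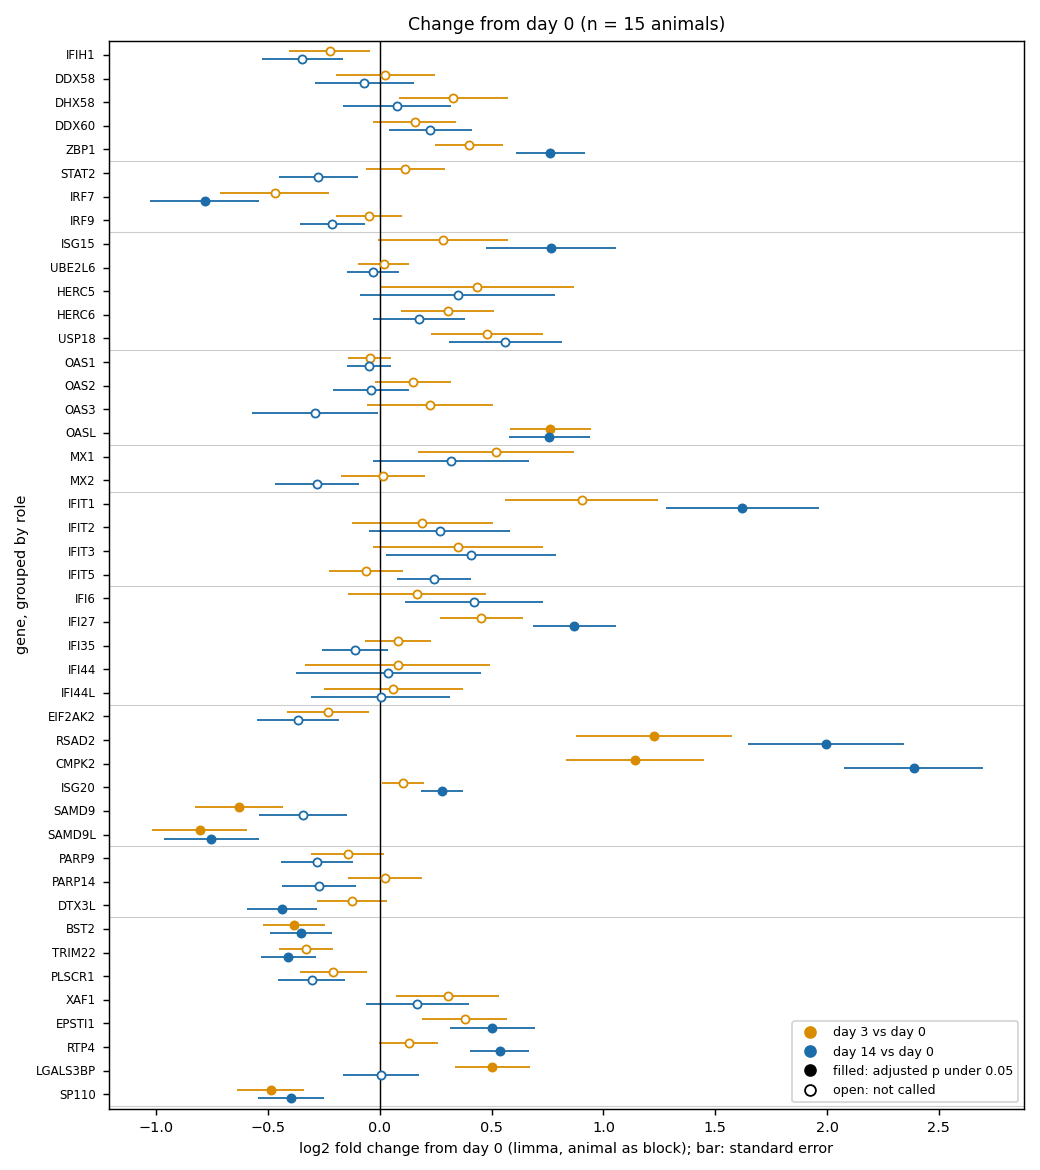
Log2 fold change of each interferon-stimulated gene from day 0 to day 3 and to day 14, with its standard error, from limma with the animal as a block (n = 15 animals). Filled points had an adjusted p under 0.05. CMPK2 (2.39), RSAD2 (1.99) and IFIT1 (1.62) lie farthest to the right on day 14, and IRF7 (-0.78) and SAMD9L (-0.75) farthest to the left.

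Among the 5 sensors of foreign RNA and DNA, ZBP1 alone was called, and on day 14 only. ZBP1 binds left-handed nucleic acid and can start cell death, and it ranged from 0.393 to 10.4 (median 4.59) on day 0, from 0.61 to 11.1 (median 6.21) on day 3 and from 0.913 to 13.9 (median 6.3) on day 14. A rise followed on day 14 (log2 fold change 0.76 ± 0.15 (SE), adjusted p = 1.87e-04, higher in 14 of 15 animals). The groups overlapped over nearly their whole range. VSC00001 stayed between 10.4 and 11.5, and VSC00005 had the lowest value on day 0 (0.393) and again on day 3 (0.61) but reached 1.57 on day 14. Large moves to day 14 were also seen in VSC00011, from 0.699 to 4.11, and in VSC00007, from 1.13 to 3.4. Without the animal block the adjusted p was 0.178, and without TMM it was 0.102 at a log2 fold change of 0.37.

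DDX58, which encodes the RNA sensor RIG-I, ranged from 10.9 to 92.6 (median 14.5) on day 0, from 11.3 to 47.7 (median 16.1) on day 3 and from 10.2 to 52.4 (median 15) on day 14. Its fold change was 0.02 ± 0.22 on day 3 and -0.07 ± 0.22 on day 14, and neither was called. IFIH1, the sensor MDA5 for long double-stranded RNA, ranged from 20.7 to 181 (median 28.5) on day 0, from 16.5 to 51.2 (median 29.7) on day 3 and from 15.3 to 47.9 (median 27.4) on day 14. Its fold changes were -0.22 ± 0.18 and -0.35 ± 0.18 (adjusted p = 0.421 and 0.119). In both genes the medians of the 3 days lay close together and the extremes of day 0 came from VSC00011 and VSC00002. DHX58, a regulator of both sensors, and DDX60, a helicase that assists them, were called in none of the 3 comparisons.

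Of the 3 signalling and transcription factors, IRF7 was called. IRF7 is the transcription factor that amplifies interferon production, and it ranged from 9.37 to 135 (median 27.4) on day 0, from 10.6 to 46.2 (median 21.1) on day 3 and from 7.16 to 30.5 (median 16.9) on day 14. It fell on day 14 (log2 fold change -0.78 ± 0.24 (SE), adjusted p = 0.00993, lower in 12 of 15 animals). On day 0, 6 of 15 animals (VSC00011, VSC00002, VSC00015, VSC00007, VSC00004 and VSC00008) stood above every sample of day 14, while the low ends of both days overlapped. Without VSC00002 and VSC00011 the fall was -0.51 ± 0.22 and no longer called (adjusted p = 0.0629).

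STAT2, the subunit that is specific to type I and type III interferon signalling, ranged from 13.7 to 68.3 (median 21.6) on day 0, from 16.4 to 61.4 (median 21.9) on day 3 and from 11.3 to 38.6 (median 19.4) on day 14. Fold changes of STAT2 were 0.11 ± 0.18, -0.27 ± 0.18 and, for day 14 vs. day 3, -0.39 ± 0.18, with adjusted p of 0.696, 0.21 and 0.0995. IRF9, its DNA-binding partner, was called in no comparison.

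The ISG15 system attaches the ubiquitin-like protein ISG15 to other proteins (UBE2L6, HERC5, HERC6) or removes it (USP18). ISG15 itself ranged from 2.15 to 28.3 (median 4.34) on day 0, from 2.78 to 16.7 (median 5.34) on day 3 and from 3.22 to 24.6 (median 7.8) on day 14. By day 14 it had risen (log2 fold change 0.77 ± 0.29 (SE), adjusted p = 0.0323, higher in 11 of 15 animals). The 2 highest samples of day 0, VSC00011 and VSC00002, lay above all samples of day 14, whereas the medians rose from day to day. This call was lost without the block (adjusted p = 0.0526), with the RNA integrity number in the fit (0.65), without TMM (0.248), with no filter on low values (0.0576), with limma-voom (0.0703) and without any of VSC00006, VSC00007, VSC00009, VSC00012, VSC00013, VSC00014 and VSC00015, singly (up to 0.0928). With VSC00002 and VSC00011 left out the fold change was 1.15 ± 0.25 (adjusted p = 6.78e-04).

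USP18, which also shuts off the receptor, ranged from 0.222 to 2.92 (median 0.459) on day 0, from 0.274 to 4.65 (median 0.799) on day 3 and from 0.24 to 2.57 (median 0.807) on day 14. Its fold changes were 0.48 ± 0.25 and 0.56 ± 0.25, the second with an adjusted p of 0.0681, higher in 10 of 15 animals. HERC5, the main ISG15 ligase, ranged from 2.0 to 72.1 (median 4.08) on day 0, from 2.93 to 40.4 (median 6.28) on day 3 and from 1.8 to 60.8 (median 7.02) on day 14. Its day 14 fold change was 0.35 ± 0.43 (adjusted p = 0.541), against an SD over animals of 1.53 on day 0. UBE2L6, the ISG15-conjugating enzyme, ranged from 26.7 to 78.5 (median 41.9) on day 0, from 34.1 to 65.6 (median 42) on day 3 and from 28.4 to 64.4 (median 41) on day 14. These ranges overlapped almost fully, and the 4 ISG15 system genes other than ISG15 were called in no comparison.

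The 2′-5′ oligoadenylate synthetases make the messenger that activates RNase L. OASL, the member of the family that has lost that activity and binds RIG-I, ranged from 2.7 to 9.75 (median 4.2) on day 0, from 4.31 to 21.2 (median 6.86) on day 3 and from 3.67 to 14.5 (median 7.95) on day 14. It rose on day 3 (log2 fold change 0.76 ± 0.18 (SE), adjusted p = 0.0043, higher in 14 of 15 animals) and on day 14 (log2 fold change 0.76 ± 0.18 (SE), adjusted p = 0.0012, higher in 14 of 15 animals). Levels on day 14 were about those on day 3 (log2 fold change -0.0046, adjusted p = 0.987). The groups overlapped, although the median of either later day lay above most samples of day 0. The rise on day 3 was kept under 23 of 24 alternatives, the exception being the RNA integrity number with no block (adjusted p = 0.0806). The rise on day 14 was not called with the RNA integrity number in the fit (adjusted p = 0.169) or without TMM (0.145).

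OAS1, an active synthetase, ranged from 36.6 to 80.5 (median 62.4) on day 0, from 22.7 to 88.7 (median 58) on day 3 and from 33.6 to 86.1 (median 55) on day 14. OAS1 had fold changes of -0.05 ± 0.10 and -0.05 ± 0.10 (adjusted p = 0.788 and 0.724). On day 0 it was highest in VSC00010 and was low in VSC00011, at 37.1, the sample in which most other members peaked. OAS2 and OAS3 were called in no comparison.

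The MX GTPases form rings around viral nucleoproteins. MX1 ranged from 3.22 to 97.9 (median 9.58) on day 0, from 5.48 to 73.1 (median 13.1) on day 3 and from 3.05 to 57.9 (median 14.9) on day 14. Its fold changes were 0.52 ± 0.35 and 0.32 ± 0.35 (adjusted p = 0.32 and 0.481), higher in 10 of 15 animals each time. On each day the highest sample had more than 10 times the level of the lowest. MX2 was called in no comparison.

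Of the IFIT RNA-binding proteins, IFIT1 binds viral RNA that lacks the host cap methylation. IFIT1 ranged from 5.32 to 305 (median 23.4) on day 0, from 15.4 to 139 (median 51.6) on day 3 and from 23.2 to 345 (median 74.4) on day 14. Day 14 brought a rise (log2 fold change 1.62 ± 0.34 (SE), adjusted p = 3.09e-04, higher in 13 of 15 animals). Its day 3 fold change was 0.90 ± 0.34 (adjusted p = 0.0613), and without VSC00002 and VSC00011 it was 1.20 ± 0.29 (adjusted p = 0.0125). VSC00011 and VSC00002 were the 2 animals in which IFIT1 fell to day 14, from 305 to 74.4 and from 164 to 69.6. In VSC00015 it went from 51.6 to 345, and in VSC00009 from 5.32, the lowest value of day 0, to 103.

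IFIT1B, a close paralog that is not in the set, lies next to IFIT1 in the RefSeq annotation of the assembly mChlSab1.0.hap1, and it rose much more (log2 fold change 3.01 ± 0.45 (SE), adjusted p = 4.19e-06, higher in 14 of 15 animals). Reads of such a pair can be assigned to either gene, so the size of the IFIT1 change is uncertain. IFIT2, IFIT3 and IFIT5 were called in no comparison, with day 14 fold changes of 0.27 ± 0.32, 0.41 ± 0.38 and 0.24 ± 0.17.

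Of the 5 IFI genes, IFI27 was called. IFI27, a mitochondrial protein widely used as a blood marker of viral infection, ranged from 46.4 to 268 (median 110.4) on day 0, from 71.4 to 325 (median 135) on day 3 and from 93.6 to 365 (median 207) on day 14. IFI27 went up on day 14 (log2 fold change 0.87 ± 0.19 (SE), adjusted p = 3.45e-04, higher in 12 of 15 animals), and its day 3 fold change was 0.45 ± 0.19 (adjusted p = 0.0856). The day 14 median was above every day 0 sample but those of VSC00002 and VSC00011. With the RNA integrity number in the fit the day 14 rise was not called (adjusted p = 0.131).

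IFI6, an endoplasmic reticulum protein that protects against flaviviruses, ranged from 44.7 to 1439 (median 104) on day 0, from 68.4 to 329 (median 156) on day 3 and from 66 to 757 (median 171) on day 14. For IFI6 the fold changes were 0.17 ± 0.31 and 0.42 ± 0.31 (adjusted p = 0.754 and 0.277). Without VSC00002 and VSC00011 the day 14 fold change was 0.86 ± 0.25 (adjusted p = 0.00719). IFI44L and IFI44 are neighbouring paralogs, and IFI44L ranged from 5.51 to 195 (median 12.8) on day 0, from 6.55 to 45.4 (median 13.2) on day 3 and from 4.46 to 55.2 (median 17.5) on day 14. IFI44 ranged from 2.52 to 1063 (median 21.4) on day 0, from 7.95 to 166 (median 25) on day 3 and from 4.39 to 285 (median 43.3) on day 14. Both had fold changes near 0 on day 14 (0.00 ± 0.31 for IFI44L and 0.04 ± 0.41 for IFI44) over a very wide spread. IFI35 was called in no comparison.

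The nucleotide and translation effectors held the largest rises in the set in each comparison, and the largest fall on day 3. CMPK2, a mitochondrial nucleotide kinase, ranged from 2.09 to 40.9 (median 9.97) on day 0, from 5.02 to 69.6 (median 23.9) on day 3 and from 19.1 to 180.0 (median 60.7) on day 14. It rose on day 3 (log2 fold change 1.14 ± 0.31 (SE), adjusted p = 0.00992, higher in 15 of 15 animals), on day 14 (log2 fold change 2.39 ± 0.31 (SE), adjusted p = 9.51e-07, higher in 15 of 15 animals) and between day 3 and day 14 (log2 fold change 1.25 ± 0.31 (SE), adjusted p = 0.00538, higher in 11 of 15 animals). All 15 animals were above their own day 0 level on both later days. The day 14 median was higher than every sample of day 0, although the lowest day 14 samples, such as VSC00013 at 19.1, lay inside the day 0 range. The day 14 call against day 0 was kept under all 24 alternatives, and those on day 3 and between day 3 and day 14 under all but the RNA integrity number with no block (adjusted p = 0.0898 and 0.0628).

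RSAD2 encodes viperin, which makes a chain-terminating nucleotide from CTP, and its gene is the neighbour of CMPK2 in the RefSeq annotation. It ranged from 1.66 to 29.2 (median 9.08) on day 0, from 3.56 to 49.3 (median 21) on day 3 and from 8.85 to 152 (median 29.7) on day 14. It rose on day 3 (log2 fold change 1.23 ± 0.35 (SE), adjusted p = 0.0133, higher in 13 of 15 animals) and on day 14 (log2 fold change 1.99 ± 0.35 (SE), adjusted p = 3.31e-05, higher in 13 of 15 animals). The 2 animals with less RSAD2 on day 14 than on day 0 were VSC00002 and VSC00011. In VSC00014 it reached 152, the highest of all samples, as CMPK2 did there (180.0).

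SAMD9L and SAMD9 are neighbouring paralogs that restrict poxviruses and slow translation. SAMD9L ranged from 132 to 956 (median 224) on day 0, from 100.3 to 346 (median 152) on day 3 and from 89 to 259.8 (median 180.3) on day 14. It fell on day 3 (log2 fold change -0.81 ± 0.21 (SE), adjusted p = 0.00792, lower in 11 of 15 animals) and on day 14 (log2 fold change -0.75 ± 0.21 (SE), adjusted p = 0.00446, lower in 13 of 15 animals). VSC00011, VSC00015, VSC00002, VSC00007 and VSC00004, the highest animals on day 0, lay there above every sample of either later day, and the low ends of the 3 days overlapped. SAMD9 ranged from 44.3 to 313 (median 68.6) on day 0, from 26.8 to 103 (median 52.1) on day 3 and from 38.3 to 103 (median 77.4) on day 14. It fell on day 3 (log2 fold change -0.63 ± 0.20 (SE), adjusted p = 0.0235, lower in 13 of 15 animals), a call lost without any of VSC00002, VSC00004, VSC00008 and VSC00011, singly (adjusted p up to 0.0693). Without VSC00002 and VSC00011 together neither gene was called on day 3 (adjusted p = 0.066 and 0.152), while SAMD9L was still called on day 14 (-0.58 ± 0.22, adjusted p = 0.0355).

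ISG20, an exonuclease for single-stranded RNA, had the smallest spread of the set on day 0 and ranged from 18 to 35.8 (median 21.4) on day 0, from 16.5 to 34.5 (median 23.3) on day 3 and from 20.7 to 42.8 (median 28) on day 14. The rise on day 14 was small (log2 fold change 0.28 ± 0.09 (SE), adjusted p = 0.018, higher in 11 of 15 animals). With no TMM scaling its fold change turned to -0.11, and with the RNA integrity number in the fit the adjusted p was 0.435. EIF2AK2, the kinase PKR that halts translation, ranged from 7.81 to 60.2 (median 10.9) on day 0, from 7.0 to 22.8 (median 11.2) on day 3 and from 6.55 to 30.1 (median 10.6) on day 14. EIF2AK2 had fold changes of -0.23 ± 0.18 and -0.36 ± 0.18 (adjusted p = 0.411 and 0.107), and in RefSeq it overlaps another coding gene, GPATCH11.

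**Figure D3:**
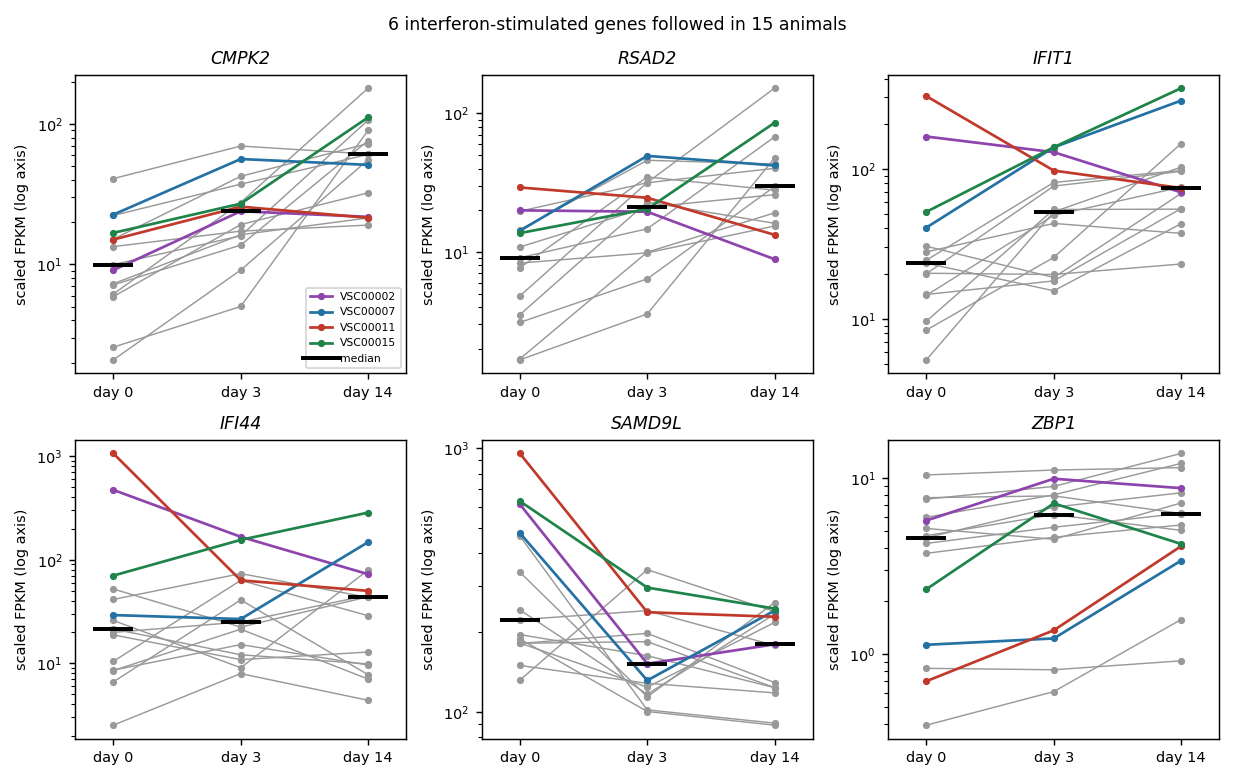
Scaled FPKM (log axis) of 6 interferon-stimulated genes on day 0, day 3 and day 14, with a line per animal (n = 15) and a black bar at the median of each day. CMPK2 rises in all 15 animals to day 14, IFIT1 falls to day 14 only in VSC00002 and VSC00011, and in SAMD9L the highest lines of day 0 all fall.

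PARP9, PARP14 and DTX3L modify proteins by ADP-ribosylation and ubiquitination in the response. DTX3L fell on day 14 (log2 fold change -0.44 ± 0.16 (SE), adjusted p = 0.0231, lower in 11 of 15 animals), a call lost without VSC00002 (adjusted p = 0.0614) and with the RNA integrity number in the fit (0.0732, at a fold change of -0.50). PARP9 and DTX3L overlap in RefSeq, and PARP9 and PARP14 were called in no comparison.

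BST2 encodes tetherin, which holds budding virions at the cell surface, and it ranged from 52.1 to 215 (median 77.4) on day 0, from 44.4 to 121 (median 67.5) on day 3 and from 53.7 to 107 (median 73) on day 14. It was lower on day 3 (log2 fold change -0.38 ± 0.14 (SE), adjusted p = 0.04996, lower in 11 of 15 animals) and on day 14 (log2 fold change -0.35 ± 0.14 (SE), adjusted p = 0.0374, lower in 10 of 15 animals). Both calls were near the threshold: leaving out single animals ended the first in 11 of 15 cases (adjusted p up to 0.138) and the second in 9 (up to 0.0908). Without the block the adjusted p was 0.112 and 0.0787. On day 0, VSC00011, VSC00002, VSC00010 and VSC00013 lay above every sample of the later days.

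Of the other effectors, TRIM22, a ubiquitin ligase of the nucleus, fell on day 14 (log2 fold change -0.41 ± 0.12 (SE), adjusted p = 0.00734, lower in 12 of 15 animals), with the same fold change but an adjusted p of 0.0647 with the RNA integrity number in the fit. RTP4, a chaperone of cell-surface receptors, ranged from 2.22 to 15.2 (median 5.08) on day 0, from 4.27 to 8.57 (median 5.59) on day 3 and from 4.83 to 11.5 (median 7.48) on day 14. RTP4 rose on day 14 (log2 fold change 0.54 ± 0.13 (SE), adjusted p = 0.00152, higher in 12 of 15 animals) and between day 3 and day 14 (log2 fold change 0.41 ± 0.13 (SE), adjusted p = 0.0251, higher in 13 of 15 animals). With the RNA integrity number in the fit the adjusted p was 0.135 and 0.138, without TMM 0.401 and 0.763, and without the block the second was 0.0669. EPSTI1 rose on day 14 (log2 fold change 0.50 ± 0.19 (SE), adjusted p = 0.0306, higher in 13 of 15 animals), with an adjusted p of 0.0924 without the block and of up to 0.0971 without 1 of VSC00006, VSC00007, VSC00008, VSC00009 and VSC00015. With the RNA integrity number in the fit the EPSTI1 fold change was 0.28 (adjusted p = 0.447), and without TMM it was 0.11 (0.616). EPSTI1 overlaps the coding gene FAM216B and a pseudogene in RefSeq, and its reads may include theirs. SP110, a nuclear body protein, ranged from 18.3 to 80.4 (median 26.3) on day 0, from 13.2 to 30.6 (median 24.3) on day 3 and from 14.5 to 54.3 (median 25.3) on day 14. It fell on both days (-0.49 ± 0.15 and -0.40 ± 0.15, adjusted p = 0.0201 and 0.0301), with adjusted p of 0.0785 and 0.0908 without the block and of up to 0.0529 and 0.0852 with single animals left out. On day 14 the adjusted p of SP110 with the RNA integrity number in the fit was 0.171, at a fold change of -0.37.

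LGALS3BP, a secreted glycoprotein that binds galectins, ranged from 3.22 to 8.38 (median 4.53) on day 0, from 3.75 to 14.9 (median 6.25) on day 3 and from 2.51 to 15.1 (median 3.9) on day 14. It rose on day 3 (log2 fold change 0.50 ± 0.17 (SE), adjusted p = 0.0342, higher in 12 of 15 animals) and fell again between day 3 and day 14 (log2 fold change -0.50 ± 0.17 (SE), adjusted p = 0.0305, lower in 12 of 15 animals). Without the block the adjusted p was 0.0973 and 0.0851. The first was 0.105 without TMM, and the second 0.114 with the RNA integrity number in the fit. Removing single animals ended the first call in 8 cases (up to 0.0805) and the second in 5 (up to 0.0881). PLSCR1 and XAF1 were called in no comparison.

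Leaving out VSC00002 and VSC00011 was an alternative chosen after seeing the data, and since their high day 0 levels were the reason for the choice, the shift towards higher calls against day 0 follows from it and gives no support for a rise. With 13 animals, 7 members were called on day 3 vs. day 0, all 7 higher (5.39% of all genes were called higher and 4.37% lower, 9.76% in all). On day 14 vs. day 0, 14 were higher and 2 lower (18.8% and 21.3% of all genes, 40.1% in all), and on day 14 vs. day 3, 4 were higher and none lower (10.5% and 9.5%, 20% in all). Median member fold changes were 0.28, 0.32 and 0.00, against 0.01, -0.06 and -0.06 over all genes. Of the calls made with all animals, 3, 12 and 2 were also made with 13.

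Calls lost on day 3 were SAMD9, SAMD9L, BST2 (adjusted p = 0.294), SP110 (0.0954) and LGALS3BP (0.0599). On day 14 those lost were IRF7, DTX3L (0.134), BST2 (0.178) and SP110 (0.22), and between day 3 and day 14 LGALS3BP (0.0909).

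Newly called on day 3 without the 2 animals were DHX58 (0.63 ± 0.17, adjusted p = 0.0242), IFIT1, IFI27 (0.59 ± 0.19, 0.0447) and EPSTI1 (0.54 ± 0.17, 0.0394). On day 14 they were USP18 (0.83 ± 0.23, 0.00562), IFIT5 (0.42 ± 0.15, 0.029), IFI6 and XAF1 (0.49 ± 0.18, 0.0359). CMPK2, RSAD2 and IFIT1 had day 14 fold changes of 2.62 ± 0.33, 2.48 ± 0.31 and 2.12 ± 0.29. For RSAD2 and IFIT1 the animals left out were the only 2 that fell to day 14. IFIT1 and RSAD2 were then also called between day 3 and day 14 (0.92 ± 0.29 and 1.04 ± 0.31, adjusted p = 0.0266 and 0.0224).

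The interferon-stimulated genes differed between animals more than most genes did. The median SD over animals was 0.79 (log2) on day 0, 0.57 on day 3 and 0.59 on day 14, against 0.43, 0.41 and 0.40 over all tested genes. On day 0, 41 of the 45 members were above the median SD of all genes and 19 above its 90th percentile. On day 3 these counts were 34 and 9, and on day 14 they were 35 and 13. The widest on day 0 were IFI44 (2.26), HERC5 (1.53), IFIT1 (1.53), IFI44L (1.44), MX1 (1.38) and ZBP1 (1.36). The narrowest were ISG20 (0.28), LGALS3BP (0.37) and UBE2L6 (0.41).

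Without VSC00002 and VSC00011 the median SD of the members was 0.45 on day 0, 0.48 on day 3 and 0.62 on day 14, against 0.42, 0.40 and 0.41 over all genes. The animals left out were the extremes of day 0 while those of day 14 were kept, so the lower day 0 value follows from the choice and no order of the days is read from it. With all animals, 4 of 45 members had a larger SD on day 14 than on day 0, against 7817 of the 18753 tested genes. Without VSC00002 and VSC00011 the counts were 32 and 8849, which depend on that choice in the same way. In a limma test of absolute deviations from each day's median, no member passed an adjusted p under 0.05 in any comparison. At an unadjusted p under 0.05 there were 4 members on day 3 vs. day 0 (MX2, BST2, PLSCR1 and SP110), 3 on day 14 vs. day 0 (IRF7, IRF9 and BST2) and 0 on day 14 vs. day 3, against 8.12%, 10% and 3.23% of all genes. By adjusted p the test called 2, 10 and 0 of all genes (0.0107%, 0.0533% and 0%).

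**Figure D4:**
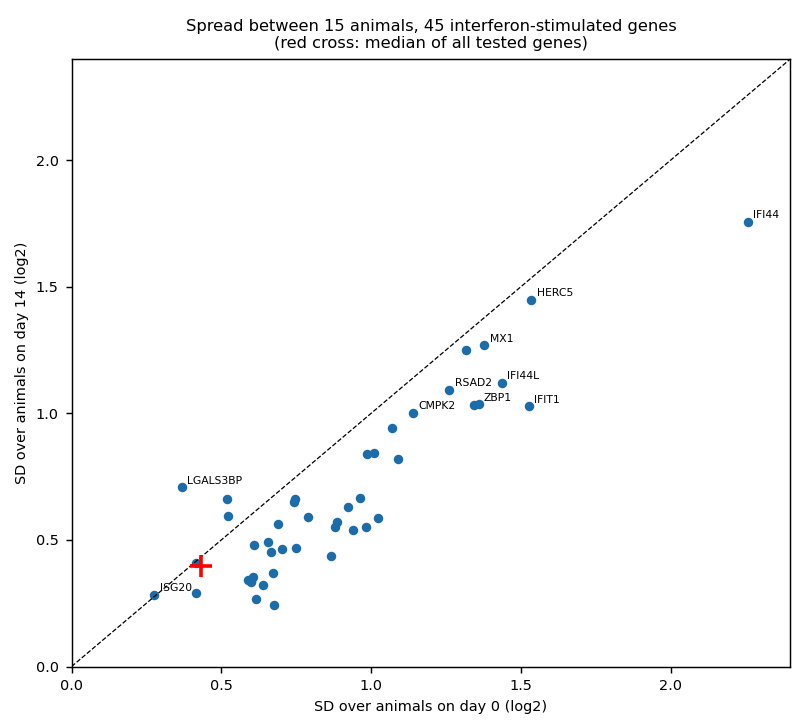
SD over animals of log2(scaled FPKM + 0.1) on day 0 (horizontal) and day 14 (vertical) for the 45 interferon-stimulated genes (n = 15 animals). The dashed line marks equal spread, and the red cross marks the medians over all tested genes (0.43 and 0.40). Above the line lie the 4 members with a larger SD on day 14, which 7817 of the 18753 tested genes also had. The day 0 values include VSC00002 and VSC00011.

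How far an animal kept its place across the 3 days differed by gene. The share of variance within days that lay between animals was 0.25 in the median member and 0.22 in the median tested gene. It was 0.88 for ZBP1, 0.66 for OAS1 and 0.58 for IFI44, whereas it was -0.04 for IFIT5 and 0.01 for PLSCR1, where an estimate near or below 0 means no measurable share. ZBP1 and OAS1 also had the lowest median r with the other members on day 0 (-0.18 and -0.22).

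Over the 15 animals of a day most members rose and fell together. The median Pearson r over the 990 pairs of members was 0.71 on day 0, 0.51 on day 3 and 0.60 on day 14, as a description, since all pairs share the same animals and VSC00002 and VSC00011 weigh on day 0. No such value was computed for pairs of other genes or without those animals. IFI44L, DDX58, PARP9, TRIM22 and XAF1 had a median r of 0.85 with the other members on day 0. CMPK2 and RSAD2 followed each other, with r of 0.82, 0.92 and 0.88 on the 3 days. Their median r with the other members was 0.14 and 0.48 on day 0, -0.09 and -0.08 on day 3 and -0.11 and -0.07 on day 14. These were the 2 members with the largest rises on day 14.

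Among the other genes of the pathway, listed by role, 66 of 84 were tested. On day 3, 6 were higher and 9 lower (9.09% and 13.6%, against 9.99% and 9.02% of all genes). On day 14, 7 were higher and 25 lower (10.6% and 37.9%, against 20.7% and 23.3%), and on day 14 vs. day 3, 5 were higher and 11 lower (7.58% and 16.7%, against 12.2% and 13.2%). Without TMM the counts were 4 higher and 45 lower on day 14 and 2 and 42 on day 14 vs. day 3. They were 4 and 14, and 2 and 3, with the RNA integrity number in the fit.

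Of the interferons themselves, IFNG alone was tested. IFNG, the type II interferon of T and NK cells, ranged from 0.0958 to 1.15 (median 0.388) on day 0, from 0.22 to 1.19 (median 0.536) on day 3 and from 0.405 to 2.93 (median 1.02) on day 14, with as few as 4 fragments in a library. It was up-regulated on day 14 (log2 fold change 1.13 ± 0.22 (SE), adjusted p = 1.20e-04, higher in 14 of 15 animals) and above day 3 there (0.76 ± 0.22, adjusted p = 0.0132), where the call was lost with the RNA integrity number in the fit (0.0777) and without TMM (0.0974). IFNB1 had 12 fragments and IFNA2 9 over all 45 libraries, IFNW1 2, IFNL1 6, IFNK 13 and IFNE 211. These interferon transcripts did not pass the filter on low values, so changes in them were not tested.

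Of the 11 receptor and signalling genes, 3 fell on day 3 and 5 on day 14 (27.3% and 45.5%, against 9.02% and 23.3% of all genes), none rose, and with the RNA integrity number in the fit 3 were called each time. IFNAR2 ranged from 14.9 to 45 (median 22.4) on day 0, from 15 to 22.8 (median 18.8) on day 3 and from 13.7 to 22.4 (median 18.1) on day 14. This chain fell on day 3 (log2 fold change -0.39 ± 0.12 (SE), adjusted p = 0.0188, lower in 12 of 15 animals) and on day 14 (log2 fold change -0.46 ± 0.12 (SE), adjusted p = 0.00177, lower in 13 of 15 animals). IFNAR1, the other chain, ranged from 34.4 to 121 (median 51.3) on day 0, from 38.9 to 69.3 (median 47.3) on day 3 and from 34.7 to 80.6 (median 54.5) on day 14. Fold changes of IFNAR1 were -0.30 ± 0.14 and -0.18 ± 0.14 (adjusted p = 0.134 and 0.288).

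In the pathway that induces interferon, MB21D1, the DNA sensor cGAS, ranged from 4.76 to 124 (median 11.3) on day 0, from 3.17 to 12.8 (median 6.69) on day 3 and from 3.52 to 10.7 (median 6.34) on day 14. It fell on day 3 (log2 fold change -1.27 ± 0.31 (SE), adjusted p = 0.00538, lower in 11 of 15 animals) and on day 14 (log2 fold change -1.45 ± 0.31 (SE), adjusted p = 3.98e-04, lower in 12 of 15 animals). Of the 16 tested genes of that pathway, 0 were higher and 6 lower on day 14 vs. day 0 (37.5% lower, against 23.3% of all genes). NT5C3A, a nucleotidase from the list of other interferon-stimulated genes, ranged from 34.6 to 182 (median 58) on day 0, from 34.2 to 191 (median 69.2) on day 3 and from 49.9 to 352 (median 142) on day 14. NT5C3A rose on day 14 (log2 fold change 1.01 ± 0.20 (SE), adjusted p = 1.56e-04, higher in 14 of 15 animals) and between day 3 and day 14 (0.91 ± 0.20, adjusted p = 0.00251). More genes of its list fell than rose. Of the 27 tested there, 4 were higher and 11 lower on day 14 vs. day 0 (14.8% and 40.7%). All tested genes gave 20.7% and 23.3%. With the RNA integrity number in the fit 8 of the 27 were called. IFITM3, which blocks virus entry at endosomes, ranged from 0.865 to 17.6 (median 3.53) on day 0, from 0.385 to 2.68 (median 1.62) on day 3 and from 0.107 to 2.88 (median 1.61) on day 14. It fell on day 3 and day 14 (-1.24 ± 0.33 and -1.42 ± 0.33, adjusted p = 0.00831 and 7.73e-04), with as few as 1 fragment in a library.

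IFIT1B had the largest change of the listed pathway genes. It ranged from 16.9 to 1096 (median 160.1) on day 0, from 46.3 to 3226 (median 409) on day 3 and from 409 to 7809 (median 1266) on day 14. The rise was 1.56 ± 0.45 on day 3 (adjusted p = 0.0138), 3.01 ± 0.45 on day 14 and 1.45 ± 0.45 between them (adjusted p = 0.0191). The first and the last were not called without the block (adjusted p = 0.0502 and 0.0625), nor the last with the RNA integrity number in the fit (0.0621).

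Of the genes induced by interferon gamma, the chemokine CXCL10 ranged from 0.261 to 3.95 (median 0.949) on day 0, from 0.67 to 6.37 (median 1.44) on day 3 and from 0.552 to 4.48 (median 1.71) on day 14, with as few as 8 fragments in a library. It rose on day 3 (log2 fold change 0.88 ± 0.23 (SE), adjusted p = 0.00695, higher in 13 of 15 animals) and was above day 0 on day 14 (log2 fold change 0.84 ± 0.23 (SE), adjusted p = 0.00311, higher in 11 of 15 animals), and without the block the day 3 adjusted p was 0.058. On day 14 the CXCL10 call was lost with the RNA integrity number in the fit (adjusted p = 0.265) and without TMM (0.0561). CIITA, the master regulator of MHC class II, ranged from 2.32 to 18.5 (median 6.85) on day 0, from 3.59 to 21 (median 7.52) on day 3 and from 3.25 to 7.3 (median 4.34) on day 14. It fell between day 3 and day 14 (log2 fold change -0.79 ± 0.18 (SE), adjusted p = 0.00321, lower in 14 of 15 animals).

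The make-up of the blood moved with the days as well. In bulk samples fewer cells of a type and less RNA per cell cannot be told apart. Of 11 tested neutrophil markers, 9 fell on day 3 and 10 on day 14 (median -1.14 and -1.37), and their summed level ran from 1616 to 42647 scaled FPKM on day 0, from 838 to 7283 on day 3 and from 729 to 4518 on day 14. Of 10 erythroid markers, 9 rose on day 3 and 10 on day 14 (median 1.26 and 2.62), with sums from 614 to 31925, from 4509 to 58329.7 and from 9517 to 84466. All 7 markers of NK and cytotoxic cells rose on both days (median 0.67 and 1.12), although on day 3 only 3 were called without the block and 3 with the RNA integrity number in the fit, and on day 14 6 each time. For the neutrophil and the erythroid markers 6 were called on day 3 in either of these fits, and 9 or 10 on day 14. Shares of all genes called are those given above. Of 4 tested markers of plasmacytoid dendritic cells, the main makers of type I interferon, 3 rose on day 3 and 2 on day 14, when 1 fell. A marker that rose on both days, GZMB, is also in the list of NK and cytotoxic markers, and it is named after its values were seen. Of the other 3, PTCRA and LILRA4 rose on day 3, and PTCRA rose and TCF4 fell on day 14. Of the 4, 1 was called on each day with the RNA integrity number added, and 2 on each day without the block. No listed marker in the files was at 0 in all libraries.

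Of the remaining lists, all 7 platelet markers rose on day 3 (median 1.48) and 4 on day 14, where 1 was called with the RNA integrity number in the fit. Monocyte markers gave 2 of 8 higher on day 3, and on day 14 1 higher and 3 lower. T cell markers gave 2 of 9 lower on day 3, and 1 higher and 2 lower on day 14. B cell markers were called in none of 6 on day 3 and 2 fell on day 14. Without the block, no T cell marker was called on day 3 and 1 B cell marker on day 14. T cell markers gave 1 call on each day with the RNA integrity number added, monocyte markers 2 on each day and B cell markers none. Their part in the changes of the interferon-stimulated genes was not tested.

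The 2 animals that stood apart on day 0 differed in these lists. VSC00011 had the second highest summed neutrophil level of day 0 (39472) and the highest monocyte sum (7702), and it ranked 14 of 15 in the NK and cytotoxic sum (182). VSC00002 ranked 4 of 15 in the neutrophil sum (11698) and had the highest sum of NK and cytotoxic markers (688). Its sum of plasmacytoid dendritic cell markers, which includes GZMB, was the highest too (452), but by the mean log2 level of those markers it ranked 5 of 15.

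Within a day, some of the members with the largest changes followed marker lists across the 15 animals. The 3 called members with the largest rises on day 14 were set against the mean log2 level of the erythroid markers, and the 3 with the largest falls against that of the neutrophil markers, 18 relations in all, chosen after seeing the data and tested by permutation. CMPK2 was higher in animals with higher erythroid markers on day 0 (Pearson r = 0.83, permutation p = 1.30e-04, adjusted 5.76e-04, Spearman rho = 0.82, permutation p = 3.70e-04). On day 3 r was 0.70 (permutation p = 0.00414, adjusted 0.00828) with rho 0.70 (permutation p = 0.00536), and on day 14 r was 0.74 (permutation p = 0.00174, adjusted 0.00392) with rho 0.70 (permutation p = 0.00484). Without the 2 animals farthest from the median of the markers r was 0.74, 0.42 and 0.59 (permutation p = 0.00337, 0.159 and 0.0339), so the day 3 relation no longer passed with 13 animals. Leaving out those farthest on the marker axis also narrows its range.

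SAMD9L was higher in animals with higher neutrophil markers on day 0 (Pearson r = 0.91, permutation p = 3.00e-05, adjusted 3.60e-04, Spearman rho = 0.82, permutation p = 3.40e-04). On day 3 r was 0.68 (permutation p = 0.00535, adjusted 0.00875) with rho 0.68 (permutation p = 0.00645), and on day 14 r was 0.86 (permutation p = 4.00e-05, adjusted 3.60e-04) with rho 0.86 (permutation p = 6.00e-05). Without the 2 animals farthest from the median r was 0.94, 0.54 and 0.81 (permutation p = 4.00e-05, 0.0565 and 0.00111), so the day 3 relation no longer passed.

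IFIT1 was tied to the erythroid markers most closely on day 14 (r = 0.77, rho = 0.84, permutation p = 6.70e-04 and 1.40e-04, r = 0.78 without the 2 farthest animals). On day 0 and day 3 its adjusted permutation p for r were 0.165 and 0.0675. For RSAD2, IRF7 and DTX3L r lay between 0.47 and 0.84 over the 3 days. For RSAD2 and the erythroid markers r was 0.62, 0.69 and 0.53. Without the 2 farthest animals it was 0.47, 0.39 and 0.52 (permutation p = 0.105, 0.194 and 0.073). That of day 14 was about as large as with all animals. For IRF7 and the neutrophil markers r without the 2 farthest was 0.90, 0.23 and 0.65 (permutation p = 8.00e-05, 0.442 and 0.016), and for DTX3L 0.89, 0.21 and 0.40 (permutation p = 9.00e-05, 0.492 and 0.172). By adjusted permutation p under 0.05, 12 of the 18 relations passed for r and 13 for rho. Those that did not pass for r were IFIT1 on day 0 and day 3, RSAD2 on day 14, IRF7 on day 3 and DTX3L on day 3 and day 14. For rho they were RSAD2 (rho = 0.47, adjusted permutation p = 0.089) and IFIT1 on day 0, IFIT1 and IRF7 on day 3 and DTX3L on day 14. The share of all tested genes that follow these marker lists was not computed, and no other pairing of members and lists was tried. Whether the relations are particular to these members or cell types was therefore not tested.

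**Figure D5:**
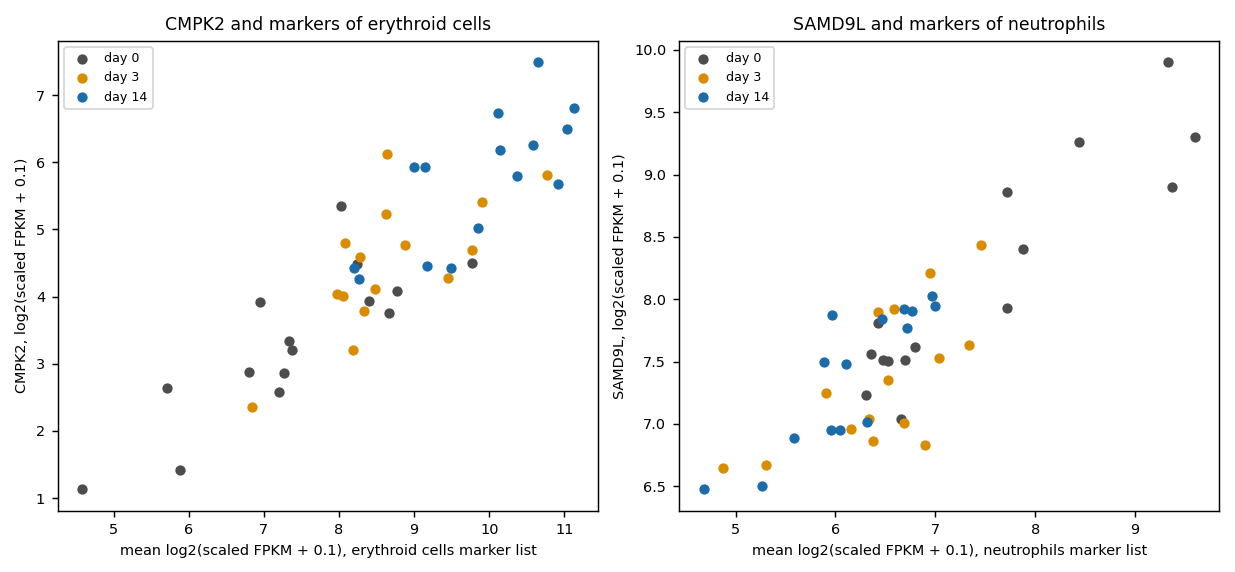
Level of CMPK2 against the mean level of the erythroid marker genes (left) and of SAMD9L against that of the neutrophil marker genes (right), both as log2(scaled FPKM + 0.1), with a point per sample colored by day (15 animals a day). Within each day both pairs rise together, with r from 0.70 to 0.83 for CMPK2 and from 0.68 to 0.91 for SAMD9L.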

How the data were processed

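Whole blood was collected in PAXgene tubes from 15 animals at 3 time points, and globin- and ribosome-depleted, stranded RNA libraries were read as paired ends. Per the labels the authors used bcl2fastq 2.17, STAR and HTSeq, the last 2 without a version there. The deposited FPKM tables were the only files, 1 per sample. Whether counting used strand is not given in the sources used here, so overlapping genes are uncertain. Dividing each gene's FPKM by its smallest step gave whole fragment numbers within 0.02 for 100% of the values above 0, from which depth and TMM factors were computed.

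Samples were grouped by day from the labels. limma 3.58.1 (R 4.3.3) was run on log2(FPKM/TMM factor + 0.1) for 18753 genes above a CPM of 0.5 in at least 3 samples, which was 6.61 to 15.7 fragments, with the animal as a replicate block and Benjamini-Hochberg adjustment. The animal numbers in the labels pair the samples, since each marks 1 animal. Deviations from the day means correlated at 0.33 on average within animals (from -0.04 to 0.58) and at -0.02 between animals. Spread was tested on absolute deviations from the day median. Correlations used 100000 permutations, two-sided (scipy 1.17.1). The tests were run on simulated counts as a check of the code. That simulation had no TMM step and no animals that stood apart, so it says nothing on calls that rest on either.

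The 45 members, the pathway and marker lists and the rule for the genes named (up to 8 called members with the largest changes per comparison, 6 members with the largest and 3 with the smallest spread on day 0, 15 always named, and 4 pathway genes per comparison) were chosen with earlier results of these data known. A pathway gene under this rule is not reported here. Alternatives were no block, the RNA integrity number of the study's sample records as a covariate, no TMM, 1 or 0.01 added, no filter, limma-voom on the recovered fragments (3767, 8064 and 4812 of all genes called), deviations from the mean, and leaving out animals. Gene neighbours came from RefSeq mChlSab1.0.hap1, where 43 of 45 members matched, and its coordinates were not used. Intervals of counting error were not computed.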

Additional observations from a re-analysis of the deposited data

How the results depend on the processing

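Of the 27 calls of interferon-stimulated genes over the 3 comparisons, 3 were made under all 24 alternatives, those of IFIT1, RSAD2 and CMPK2 on day 14 vs. day 0. OASL, RSAD2 and CMPK2 on day 3 vs. day 0, SAMD9L on day 14 vs. day 0 and CMPK2 on day 14 vs. day 3 were lost only with the RNA integrity number and no block, an alternative added after seeing the data, which kept 6 of the 27. Leaving out single animals lost 11 of the 27 calls at least once. It gave 5 to 9 members called on day 3 vs. day 0 (5 without VSC00004, without VSC00007 or without VSC00008), 13 to 17 on day 14 vs. day 0 and 1 to 4 on day 14 vs. day 3 (1 without VSC00002 or without VSC00003), against 8, 16 and 3, and 0 to 0 members whose spread changed. With no replicate block, so that the pairing by animal was not used, 5, 11 and 1 members and 8, 30 and 9 pathway genes (main 15, 32 and 16) were called. With the RNA integrity number added to the block, 8, 8 and 1 members and 12, 18 and 5 pathway genes were called, and with that number and no block 1, 5 and 0 members. For this last fit the share of all genes called was not computed, so whether members lost more calls than other genes is not known. Without TMM 7, 23 and 19 members and 11, 49 and 44 pathway genes were called, and ISG20 turned from 0.28 to -0.11 on day 14 vs. day 0. Deviations from the mean in place of the median called 1 member for spread on day 14 vs. day 0. Other pseudocounts, no filter and limma-voom kept the counts of members within 1.5 times, but no filter ended 7 of the 27 calls (BST2 on both days, ISG15, EPSTI1 and SP110 on day 14, and both of LGALS3BP). The causes were not tested. Depth limits USP18, ZBP1, ISG15, RTP4, LGALS3BP and XAF1 most, each with under 100 fragments in its lowest library.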
